A study of Solanum lycopersicum with 9 samples.

Results

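A set of 102 genes, of 23028 listed in tomato guard cells, was lowest in the DELLA loss-of-function line pro, intermediate in the cultivar M82 and highest in the DELLA gain-of-function line pro17. A gene belonged to the set when its highest pro library lay below its lowest M82 library and its highest M82 library below its lowest pro17 library. The mean of M82 also had to be at least 1.5 times the mean of pro, the mean of pro17 at least 25% above the mean of M82, and the mean of pro17 at least 50 normalized counts. Genes with a chromosome 11 identifier and 7 other loci were left out by design. Because the levels in all 9 libraries chose the members, the order of the groups and the size of the steps are given as a description, without a test.

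DELLA proteins restrain growth and other responses to the hormone gibberellin by binding transcription factors in the nucleus. Gibberellin bound to its receptor leads to the breakdown of DELLA, so the amount of DELLA protein falls when the hormone is abundant. Tomato has 1 DELLA protein, PROCERA. Guard cells lie in pairs around each stomatal pore of the epidermis and, by swelling and shrinking, set how much water the leaf loses.

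All plants were of cultivar M82 (sp-/sp), the strain label of every library, and were grown at 25°C under a day and a night of 12 h each. The labels give 3 groups of 3 libraries: M82 itself, the line pro with a loss of DELLA function, and plants expressing the gain-of-function form pro∆17, called pro17. The sources used here give neither the promoter that drives pro∆17, nor the number of independent lines, nor the age of the plants. Guard cell material was epidermal peel left on a mesh after deveined leaves had been ground in a blender, and polyadenylated RNA was sequenced. The series asks how DELLA takes part in the response to water deficit. Whether libraries of one group stem from different plants is not labelled, so the spread between them may be technical. In the titles of pro17 libraries 2 and 3 the allele number differs from the genotype label, which was used for grouping.

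Library depth ran from 14826561 to 20445679 reads counted in genes. On the first principal component, with 47.6% of the variance over 20951 genes, pro library 3 stood apart at 122.2, followed by pro library 1 at 43.0 and M82 library 3 at 14.7. The other 6 libraries lay between -35.2 and -26.4. The locus known as PROCERA, Solyc11g011260, read 3754, 3934 and 3824 normalized counts in M82, 3892, 4507 and 2851 in pro, and 5628, 5486 and 7448 in pro17. That locus is named here from general knowledge, and its transcript level does not check the label of pro. The deposited table pairs no name or description with any identifier and 0 identifiers matched the reference table of gene names, so the members are given by identifier alone and no role is stated for them. For the same reason the guard cell label was not checked against marker genes. In leaf tissue of this kind, fewer cells of a type and less RNA per cell cannot be told apart.

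The criteria were counted in turn, starting with the separation of the libraries. In 267 of the listed genes every pro library lay below every M82 library and every M82 library below every pro17 library. Among the 19493 genes that were tested and not left out by design, this order held in 236, or 1.21%, and the opposite order, pro17 below M82 below pro, in 152, or 0.780%. Of the 267 genes, 235 also reached the level of 50 in pro17, 179 of these the step of 25% from M82 to pro17, and 113 of these the 1.5-fold step from pro to M82. Leaving out 8 chromosome 11 identifiers and 3 of the 7 other loci gave the 102 members, and all 102 passed the expression filter. The mirrored criteria, with pro highest and pro17 lowest, gave 31 genes.

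Members just inside the thresholds differed little from genes just outside. On the step from pro to M82, Solyc09g091260 (1.503-fold), Solyc07g055870 (1.512-fold) and Solyc05g006420 (1.516-fold) were inside. Solyc12g006790 (1.495-fold), Solyc10g080340 (1.494-fold) and Solyc12g099810 (1.485-fold) were outside, among 61 genes that missed this criterion alone. On the step from M82 to pro17, Solyc04g015980 and Solyc02g093100 (both 1.254-fold) and Solyc05g010400 (1.255-fold) were inside, and Solyc02g070260 (1.240-fold), Solyc07g053530 (1.224-fold) and Solyc12g056960 (1.201-fold) were outside, among 12 genes. On the level in pro17, Solyc02g033030 (50.1), Solyc08g062220 (51.9) and Solyc03g063100 (54.6) were inside, and Solyc07g052170 (49.6), Solyc04g011830 (43.9) and Solyc09g089790 (42.7) were outside, among 27 genes.

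The members' normalized counts, summed over the set, were 41463, 46975 and 31917 in the pro libraries 1, 2 and 3. In M82 the sums were 71953, 68551 and 72129, and in pro17 they were 143081, 117690 and 125321. As a share of all normalized counts in a library, the set took 0.174% to 0.239% in pro, 0.368% to 0.407% in M82 and 0.671% to 0.782% in pro17. The 2 most deeply read loci, Solyc12g094620 and Solyc04g071085, held 28.9% of the sum in pro, 26.6% in M82 and 29.1% in pro17, so the sums are weighted toward them. Mean normalized counts in pro17 ran from 50.1 to 19330 with a median of 415. They were 1000 or more in 31 members, between 100 and 1000 in 59 and under 100 in 12.

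**Figure D1:**
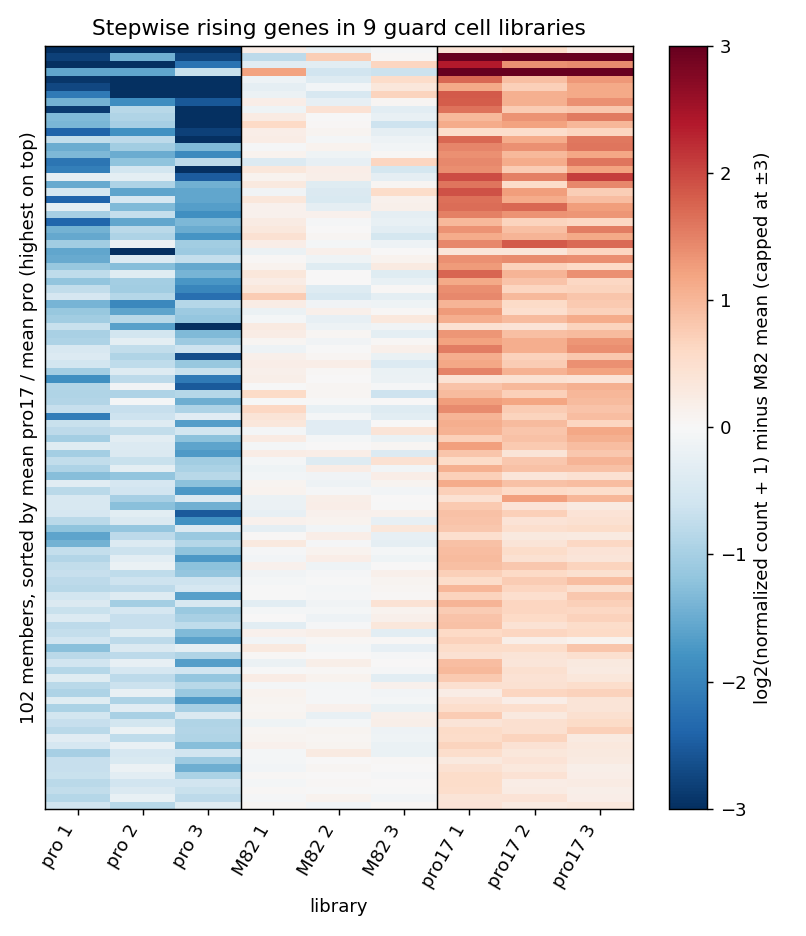
Level of the 102 members (rows) in the 9 libraries (columns), as log2 of the normalized count plus 1 minus the mean of the 3 M82 libraries, with colours capped at 3 in either direction. The pro columns are blue and the pro17 columns red throughout, which the choice of the members fixes, and pro library 3 holds many of the darkest blue cells.

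The steps were moderate in most members and large in a few. The mean of M82 over the mean of pro had a median of 1.82 over the members, with quartiles of 1.63 and 2.46, beside a median of 0.99 over all genes tested. The mean of pro17 over the mean of M82 had a median of 1.73, with quartiles of 1.46 and 2.14, again beside 0.99 over all genes tested. From pro to pro17 the median ratio was 3.28, beside 0.98. The ratio of pro17 to pro was 10 or more in 8 members, from 4 to under 10 in 30, from 2 to under 4 in 60 and under 2 in 4. The step from pro to M82 was the greater of the 2 in 69 members and the step from M82 to pro17 in 33. A step of 2-fold or more was found from pro to M82 in 40 members, from M82 to pro17 in 32 and at both steps in 21. Since the criteria set a higher minimum for the first step than for the second, these counts compare steps with unequal floors.

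**Figure D2:**
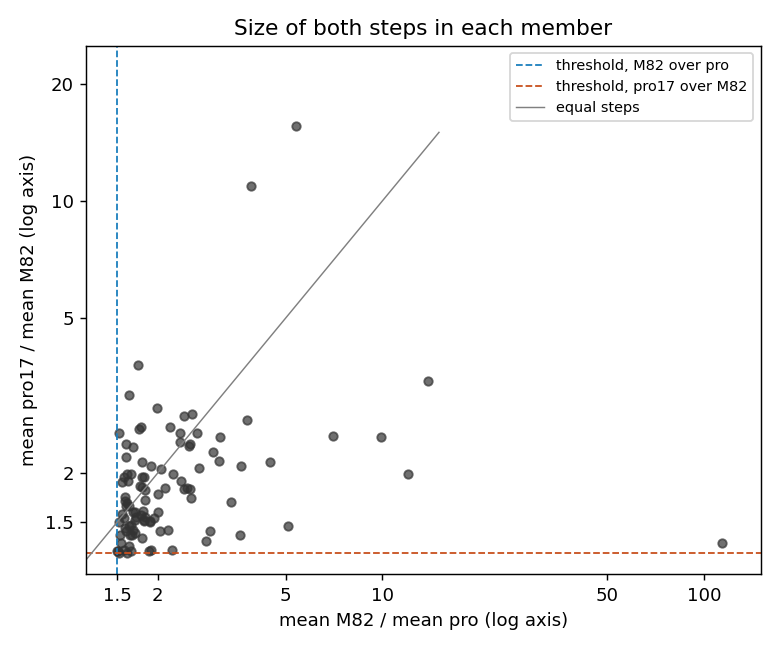
Ratio of mean M82 to mean pro (x axis, log) and of mean pro17 to mean M82 (y axis, log) in each of the 102 members, with dashed lines at the thresholds of 1.5-fold and of 25% and a grey line where both steps are equal. Most members crowd near the thresholds, Solyc02g033030 lies far to the right, and Solyc01g109500 and Solyc06g075513 lie highest.

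The 8 members with the highest ratio of pro17 to pro included 4 loci on chromosome 6 that form 2 neighbouring pairs. Solyc06g005310 read 22, 19.8 and 12.6 normalized counts in pro, 154, 132 and 253 in M82, and 577, 326 and 430 in pro17. Its neighbour Solyc06g005320 read 0, 0.99 and 2.69 in pro, 12.6, 12.8 and 25.8 in M82, and 88.2, 43.1 and 44.6 in pro17. In both loci M82 library 3 was the highest of M82 and pro17 library 1 the highest of pro17, while the pro libraries were ordered differently. From pro to pro17 the ratio of means was 24.5 for Solyc06g005310, and 47.8 for Solyc06g005320, where the pro mean rests on 4 reads.

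The second pair lay at Solyc06g060580 and Solyc06g060590. Solyc06g060580 read 33.0, 23.7 and 14.3 in pro, 103, 74.6 and 92.3 in M82, and 318, 188 and 233 in pro17. Solyc06g060590 read 34.0, 16.8 and 17.9 in pro, 134, 108 and 241 in M82, and 547, 318 and 337 in pro17. In both, pro library 1 was the highest of pro, M82 library 2 the lowest of M82 and pro17 library 1 the highest of pro17. The ratios of pro17 to pro were 10.4 and 17.5. Near-identical neighbouring copies can share reads, and how such reads were counted is not stated, so the 2 loci of a pair may not be independent.

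In Solyc02g033030 the gap lay almost wholly between pro and M82. It read 1, 0 and 0 in pro, 43.4, 33.4 and 36.9 in M82, and 49.9, 55.7 and 44.6 in pro17. The pro libraries held 1 read in all against 112 in M82 and 151 in pro17. Scaled for depth, the ratio of M82 to pro was 118, with a 95% exact binomial interval of 20.7 to 4688 that covers counting error only. The gene was chosen and named on these same reads, and the interval does not allow for that choice. Its M82 and pro17 libraries came close to touching, at 43.4 and 44.6. Solyc12g062200 was also low in pro, at 12.0, 0 and 9.86, against 70.8, 81.5 and 110 in M82 and 191, 141 and 189 in pro17.

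Solyc01g109500 and Solyc06g075513 had the largest steps from M82 to pro17 of the set. Solyc01g109500 read 6, 16.8 and 6.27 in pro, 27.4, 80.5 and 48.9 in M82, and 856, 708 and 871 in pro17. The ratio of means was 5.39 from pro to M82 and 15.53 from M82 to pro17. Solyc06g075513 read 1, 0.99 and 2.69 in pro, 12.6, 2.94 and 2.77 in M82, and 55.6, 70.1 and 73.6 in pro17. Its M82 libraries 2 and 3 barely exceeded pro library 3, so the lower of its steps rests on 5 reads in pro and 17 in M82.

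**Figure D3:**
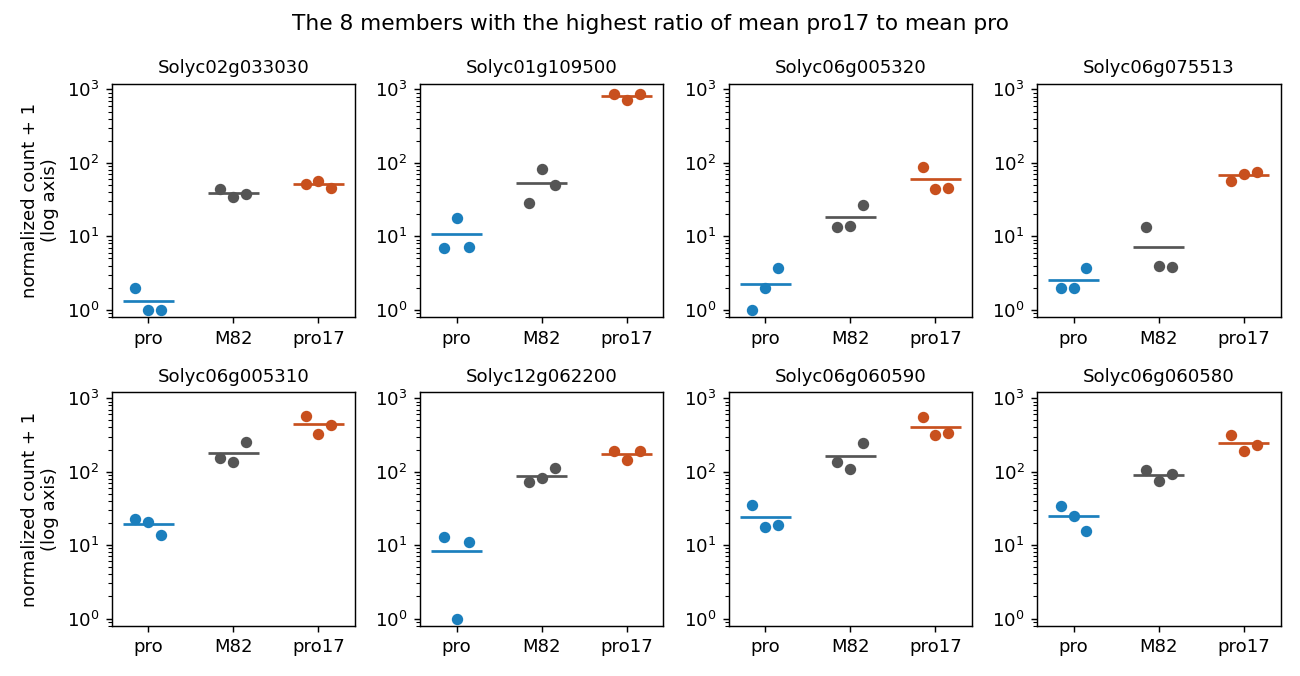
Normalized count plus 1 (log axis) in each library of pro, M82 and pro17 for the 8 members with the highest ratio of mean pro17 to mean pro, with points for libraries 1 to 3 from left to right and bars at the mean of the plotted group. Solyc02g033030 is near 0 in pro and similar in M82 and pro17, whereas Solyc01g109500 rises at both steps.

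M82 did not sit at one fixed point between the lines. On a log scale from the mean of pro to the mean of pro17, M82 lay at a median of 56.2% of the way, with a range of 29.4% to 94.4%. It lay between 40% and 60% in 57 members, above 60% and so nearer pro17 in 34, and under 40% and so nearer pro in 11. The criteria set a higher minimum for the step from pro to M82 than for the step from M82 to pro17. A gene at both minima therefore lies nearer pro17 by design, so no lean of M82 toward either line is read from these positions. The member nearest to pro was Solyc08g006410, with 12.0, 11.9 and 1.79 in pro, 16, 16.7 and 12.0 in M82, and 60.4, 44.0 and 65.2 in pro17. Its lowest M82 library and highest pro library were 12.00 and 11.99, so these groups barely separated. Its ratio of pro17 to M82, 3.80, was the third highest of the set.

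The 8 most deeply read members had ratios of pro17 to pro of 2.57 to 4.55, beside a median of 3.28 over the set. Counts rise with transcript length, which was not available, so levels are not compared between loci. Solyc12g094620 read 5491, 5690 and 6512 in pro, 9136, 7553 and 12434 in M82, and 19619, 16982 and 21390 in pro17, with a ratio of 1.99 from M82 to pro17. It and Solyc07g009130 were the 2 of the 8 most deeply read members in which pro library 3 was the highest of pro. Solyc04g071085 read 7148, 6852 and 3032 in pro, 8753, 9162 and 9468 in M82, and 21359, 15834 and 17237 in pro17, with pro library 3 far below the other 2.

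The other 6 of these 8 members had lower counts. Solyc04g072740 stood at 2188 ± 455 in pro, 3671 ± 227 in M82 and 5852 ± 345 in pro17 (mean ± SD, n = 3, as below). Solyc07g009130 stood at 2058 ± 259, 3357 ± 134 and 5549 ± 1042 in the same order. Solyc07g032490 stood at 1415 ± 382, 2699 ± 482 and 5615 ± 940. The ratios at the first and second step were 1.68 and 1.59 for Solyc04g072740, 1.63 and 1.65 for Solyc07g009130, and 1.91 and 2.08 for Solyc07g032490, so the steps were of similar size in each. Solyc07g062140 (1591 ± 500, 2701 ± 468 and 4094 ± 47.5) was the tightest in pro17, where its libraries read 4064, 4148 and 4069. Solyc06g072350 (1679 ± 764, 3064 ± 388 and 4666 ± 1106) and Solyc07g007760 (834 ± 283, 1462 ± 351 and 3793 ± 938) varied more, with pro library 3 lowest and pro17 library 1 highest in both.

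In limma's fit over all genes (Benjamini-Hochberg adjusted p under 0.05), 8 of the 102 members were called lower in pro than in M82, beside 0.134% of all genes called in that direction. Higher in pro17 than in M82 were 3 members, beside 0.0811% of all genes. Higher in pro17 than in pro were 95 members, beside 2.19% of all genes. The choice of the members used all 3 contrasts, which also share libraries, so nothing is read from these counts. The median log2 fold change of the members was -0.92 for pro against M82, 0.80 for pro17 against M82 and 1.78 for pro17 against pro, on the scale of log2 of the normalized count plus 1. Over all genes tested these medians were within 0.01 of 0.

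The 8 members called in pro against M82 were Solyc02g033030, Solyc02g065220, Solyc06g005310, Solyc06g008620, Solyc06g060590, Solyc08g076830, Solyc08g077210 and Solyc12g094380. Solyc02g065220 was the 1 member called in all 3 comparisons, with 134, 183 and 151 in pro, 370, 405 and 355 in M82, and 1041, 976 and 1145 in pro17. It was read in narrow ranges within each group and rose by a similar factor at each step, 2.42 and 2.80. Solyc08g077210 read 1129, 1252 and 1093 in pro, 1870, 1889 and 2141 in M82, and 2729, 2690 and 2836 in pro17. Solyc08g076830 was as tight, at 167, 168 and 155, then 298, 292 and 286, then 399, 383 and 409. In these loci a modest step was large beside the spread within groups. Solyc12g094380 read 162, 146 and 108 in pro, 440, 377 and 419 in M82, and 1069, 814 and 915 in pro17. Solyc06g008620 read 18.0, 27.7 and 13.4 in pro, 114, 105 and 82.1 in M82, and 143, 143 and 156 in pro17. On a log scale, 81% of the way from its mean in pro to its mean in pro17 lay between pro and M82.

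The 3 members called in pro17 against M82 were Solyc01g109500, Solyc02g065220 and Solyc03g095310. Solyc03g095310 read 368, 307 and 333 in pro, 463, 509 and 564 in M82, and 1478, 1081 and 1345 in pro17. The 7 members not called in pro17 against pro were Solyc02g093100, Solyc05g007830, Solyc05g009340, Solyc06g007440, Solyc07g008240, Solyc09g089740 and Solyc10g055560. Their coefficient of variation in pro was 42.1% to 86.6%, with pro library 3 the lowest in all 7.

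These counts moved with single libraries. In pro against M82 the count was 2, 3 and 5 without M82 library 1, 2 or 3, 5 without pro library 1, 55 without pro library 2, and 5 without pro17 library 2 or 3. Without pro library 2 the share of all genes called also rose, from 0.134% to 2.89% (28 to 605 genes), and without the other libraries named it was 0.0716% to 0.115%. In pro17 against M82 it was 5, 13 and 27 without pro library 1, 2 or 3, and 1 without pro17 library 2. It was 0 in limma without M82 library 2 or 3 or pro17 library 1 or 3. EdgeR and DESeq2 were not run on these subsets. In the fits with 0 called, 49 to 57 members had an unadjusted p under 0.05, with no share of all genes beside it. The choice of the members used this contrast, so nothing is read from that count. Of all genes, 0.0573%, 0.263% and 0.511% were called without pro library 1, 2 or 3, and 0.00477% to 0.0143% without the M82 or pro17 libraries just named, beside 0.0811% with all 9 libraries. In pro17 against pro it was 46, 49 and 49 without pro17 library 1, 2 or 3, while the share of all genes called fell from 2.19% to 0.482%, 0.549% and 0.554%.

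Within groups, the pro libraries differed most over the members. The median coefficient of variation was 33.4% in pro, 13.8% in M82 and 14.3% in pro17, beside 25.2%, 14.6% and 9.8% over all genes tested. Pro library 3 was the lowest of pro in 64 members (62.7%, beside 40.8% of all genes tested) and pro library 2 the highest in 57 (55.9%, beside 37.4%). The members' median deviation from the pro mean, on the log2 scale, was 0.06 in library 1, 0.25 in library 2 and -0.31 in library 3, whereas over all genes it was 0.00, 0.00 and 0.01. In pro17, library 1 was the highest in 64 members (62.7%, beside 40%) with a median deviation of 0.14. In M82 the median deviations were 0.06, -0.02 and -0.03. The order of libraries within a group was not itself a criterion. The demand for separate groups still limits how far a library may stray toward its neighbours, and a pro library may stray downward without limit. The members' shares and deviations therefore differ from those of all genes in part by design.

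**Figure D4:**
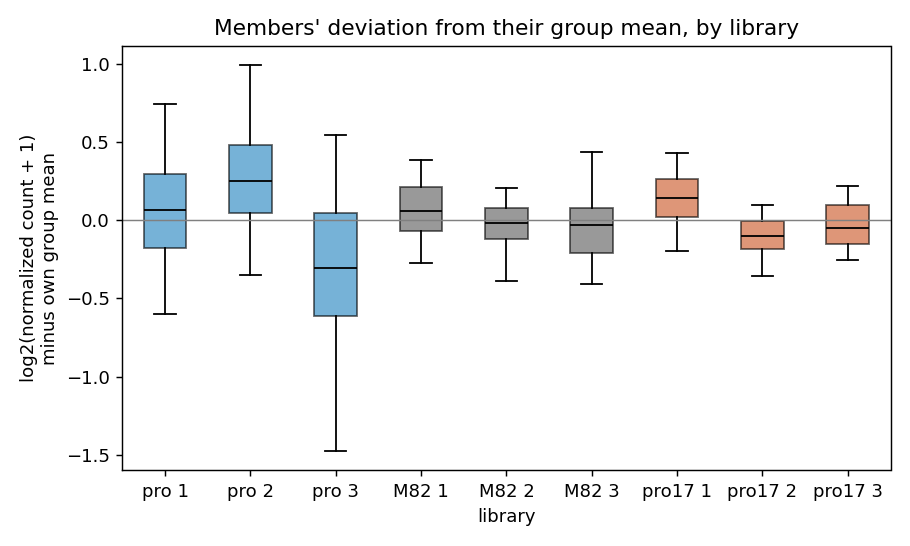
Deviation of the members in each library from their own group's mean on log2 of the normalized count plus 1, as boxes of the quartiles with the median as a black line and whiskers at the 5th and 95th percentiles. Pro library 2 lies above its group and pro library 3 below it, with medians of 0.25 and -0.31, and the M82 and pro17 boxes stay closer to 0.

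In 15 members pro library 3 held less than 0.5 times the value of each other pro library, a count with no share of all genes beside it. Solyc07g008240 read 43.0 and 41.5 in pro libraries 1 and 2 and 0 in library 3, against 64.6 to 83.4 in M82 and 157 to 240 in pro17. Solyc03g095980 read 52.0, 70.2 and 5.38 in pro, against 113 to 155 in M82 and 259 to 389 in pro17. Solyc04g077990 read 7, 31.6 and 0.90 in pro, against 46.1 to 77.5 in M82 and 97.9 to 178 in pro17. These loci were singled out after their values were seen. In 18 members (17.6%, beside 41.1% of all genes tested) pro library 3 was instead the highest of pro. Among them was Solyc07g009130, at 2356 against 1886 and 1933. The demand that every pro library lie below M82 leaves out genes in which pro library 3 strays far upward. The share of 17.6% therefore differs from that of all genes in part by design. Whether what sets pro library 3 apart on the first principal component has a part in the members' low values there was not tested.

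The members were then chosen again from 8 libraries at a time, so that the library left out had no say in the choice and could be read afterwards. Its size factor was still set with the other 8. Without pro library 3 the criteria gave 105 genes, and in 82 of them (78.1%) pro library 3 lay below every M82 library, beside 40.9% of the other genes at the level of 50 in pro17. For pro library 1 it was 98 of 127 genes (77.2%, beside 26.5%). For pro library 2 it was 112 of 242 genes (46.3%, beside 24.7%), and in the remaining genes pro library 2 reached or passed the lowest M82 library. Each left-out pro17 library lay above every M82 library in 90.3%, 91.0% and 89.5% of 103, 111 and 114 genes, beside 21.8% to 24.4%. Each left-out M82 library fell between the other groups in 81.7%, 89.5% and 71.5% of 120, 114 and 137 genes, beside 2.63% to 3.53%. The choice demanded that pro and pro17 lie apart in the chosen genes, which was not demanded of the other genes. A value can fall between these groups only where they are apart, so the M82 shares differ in part by design. When a pro or pro17 library was left out, the choice still set M82 apart from the kept libraries of that group. This too was not demanded of the other genes, so the pro and pro17 shares also differ in part by design. The other genes are not matched to the chosen ones in level or spread, and no test was made.

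**Figure D5:**
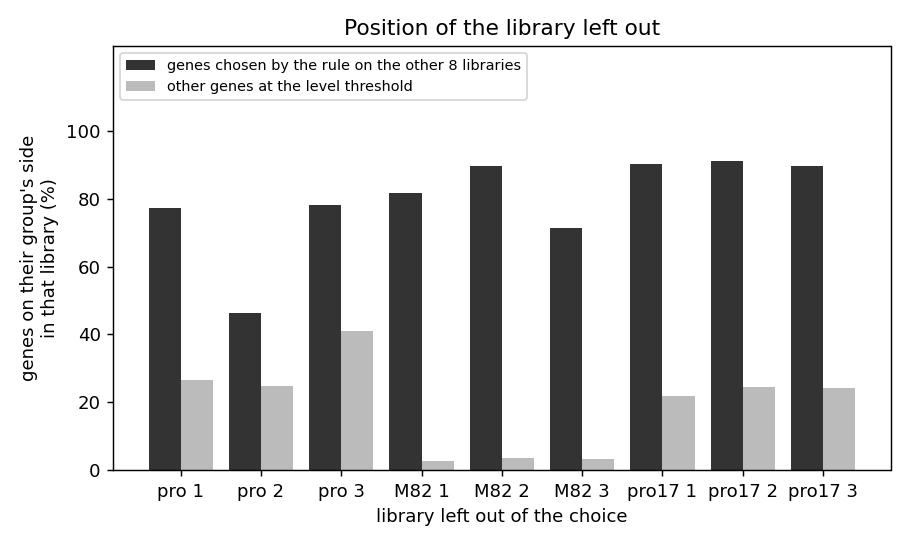
For each library, the percentage of genes chosen from the other 8 libraries (black bars) that lay on the side of their group in the library left out: below all M82 libraries for pro, between pro and pro17 for M82, above all M82 libraries for pro17. Grey bars give the same percentage among the other genes with a pro17 mean of at least 50, and pro library 2 has the lowest black bar at 46.3%.

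Of the 102 members, 97 were chosen again without pro library 2, which made up 40.1% of the 242 genes then chosen. Without pro library 3, 76 were chosen again (72.4% of 105), fewer than without any other single library. Without the other libraries 90 to 100 members were chosen again.

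By identifier the members were spread over the genome. Chromosomes 4 and 6 each carried 14 members (13.7%), beside 8.81% and 9.31% of the genes tested outside chromosome 11. Chromosome 1 carried 10 (9.80%, beside 13.7%), chromosome 2 carried 8 (7.84%, beside 11.4%) and chromosome 3 carried 9 (8.82%, beside 11.3%). The remaining chromosomes carried 5 to 10 each, and 1 member, Solyc00g052940, has an identifier with no chromosome. These shares were not tested.

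Members whose identifier numbers differ by at most 100 on one chromosome formed 6 pairs, 3 on chromosome 4 and 3 on chromosome 6. In the pairs Solyc06g005310 with Solyc06g005320 and Solyc06g060580 with Solyc06g060590, described above, no other gene is listed between the 2 loci. Between Solyc06g084140 (165, 294 and 110 in pro, 304, 300 and 308 in M82, 728, 693 and 586 in pro17) and Solyc06g084155 (611, 750 and 307, then 1235, 768 and 977, then 2082, 1870 and 1522) lies Solyc06g084150. That gene was ordered the same way, with means of 7.45 in pro, 18.7 in M82 and 35.4 in pro17, under the level of 50. In 5 of the 6 pairs both loci were highest in pro17 library 1, which was the highest of pro17 in 62.7% of all members. In the remaining pair Solyc04g008060 was highest in library 1 and Solyc04g008110 in library 3.

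The 3 pairs on chromosome 4 were less close, and none of the 11 genes listed between their loci had its libraries in the order of the set. Solyc04g008060 and Solyc04g008110 enclose 2 such genes, Solyc04g079520 and Solyc04g079560 enclose 3, and Solyc04g071085 and Solyc04g071165 enclose 6. Solyc04g079530, between the second pair, stood at 1375 in pro, 1423 in M82 and 1463 in pro17, while the member Solyc04g079560, on the far side of the 3 genes, read 276, 261 and 197 in pro, 409, 430 and 493 in M82, and 724, 665 and 621 in pro17. Counting both sides of every member, 177 genes tested were listed next to a member without belonging to the set. Of these, 2 (1.13%) were ordered as the set is, beside 0.691% of the 19391 genes that were tested, not left out and no member. Higher in pro17 than in pro by limma's fit were 8 of the neighbours (4.52%), beside 1.61% of the same genes. The neighbours' median ratio was 1.0 from pro to M82 and 1.04 from M82 to pro17. These shares were not tested.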

How the data were processed

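The values used are normalized counts, a signal for each gene and library, as the authors deposited them with 2 decimals. The submitters' processing notes name cutadapt, STAR 2.4.2a, HTSeq and DESeq2. Neither build, annotation release nor strand setting is stated, so reads of overlapping and antisense genes cannot be separated. The authors' deposited log2 fold changes and adjusted p-values stand in the same table. Within a tolerance of 0.006, 100.0% of values were whole multiples of 1 read, which gave reads per gene. Intervals on reads cover counting error only, since PCR copies are not independent molecules.

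Members and lists were chosen with earlier results of these data known. The main test was limma 3.58.1 (R 4.3.3, trended prior variance) applied to log2(normalized count + 1), with all 9 libraries in 1 fit over the 20951 genes kept by edgeR's expression filter and Benjamini-Hochberg adjustment. EdgeR 4.0.16 and DESeq2 1.42.0 on the recovered reads were alternatives.

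Members were named by a rule: the 8 most deeply read in pro17, the 8 with the highest ratio of pro17 to pro, the 4 with the highest ratio at each single step, those nearest the thresholds, and neighbours. Called and uncalled members, and those extreme in pro library 3, were named after their values were seen. The lists by gene description were void, as 0 identifiers matched. Between libraries of the same replicate number, deviations from the group means correlated at 0.13, 0.50 and 0.52 for M82 with pro. The values were 0.18, 0.20 and 0.07 for M82 with pro17, and 0.18, 0.06 and 0.02 for pro with pro17. No values for libraries of unlike number stand beside them, so no pairing of replicates is read from these.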

Additional observations from a re-analysis of the deposited data

How the results depend on the processing

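The number of genes meeting the criteria stayed within 1.5 times 102 with TMM (108) or upper-quartile scaling (105), with the lower fold threshold at both steps (149) and with levels of 20 (119) or 100 (90). It was 32 with folds of 2 and 1.5, 213 by order and level alone, and 251 where libraries may overlap. Leaving out 1 library gave 103 to 242. The median steps moved by less than the spread between libraries (0.36 and 0.22) in all settings run. Members called in pro against M82, 8 with limma, were 36 with DESeq2 (beside 0.550% of all genes). They were 2 with only the 6 libraries compared (0.0716%), and 2 to 55 without 1 library (0.0716% to 2.89%). The authors' deposited adjusted p-values gave 36 members among 173 genes called, with no share of all genes beside them. In pro17 against M82, 3 with limma, the members called were 33 with DESeq2 (beside 0.763%) and 40 with only the 6 libraries compared (1.19%). They were 7 with a pseudocount of 5 (0.129%), and 0 to 27 without 1 library (0.00477% to 0.511%). The authors' deposited table gave 33 members among 308 genes called, again with no share beside them. In pro17 against pro, 95 with limma, the members called were 102 with DESeq2 (4.2%) and 56 with only the 6 libraries compared (0.873%). They were 46 to 102 without 1 library (0.482% to 9%). The cause of these differences was not tested. Under a replicate block the counts were 7, 3 and 94, beside 0.105%, 0.0334% and 2.66% of all genes. EdgeR gave 8, 3 and 92, beside 0.124%, 0.0477% and 2.02%. Under 30 reads over the 3 pro libraries limit the ratios of 6 members.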

Other observations

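In the authors' deposited table, the log2 fold change of some called genes did not match the deposited normalized counts of the same gene. Among genes with a mean over 30 in every group, it differed by more than 0.05 from the log2 ratio of group means in 53 of 103 genes called in pro against M82 and in 90 of 232 called in pro17 against M82. It did so in 0 of 1392 called in pro17 against pro. Counted for each comparison, it did so in 0 of the genes not called there. These were 17384 in pro against M82, 17255 in pro17 against M82 and 16095 in pro17 against pro. Of the 102 members, 19 of the 36 called in pro against M82 and 22 of the 33 called in pro17 against M82 had such a mismatch, whatever their means, and 1 of the 102 called in pro17 against pro. The authors' deposited adjusted p-values of called members also differed by more than 10% from those of DESeq2 run on the recovered reads, in 31 of the 36, 21 of the 33 and 9 of the 102. The members under the threshold were the same by both, with 36, 33 and 102 shared. The table's fold changes and p-values for single genes were therefore not used, and its calls were used as counts alone.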
